A study of Mus musculus with 2 samples.

Results

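The genes described are the nuclear end of the canonical Wnt pathway: the TCF/LEF factors Lef1, Tcf7, Tcf7l1 and Tcf7l2, the Groucho corepressors Tle1, Tle2, Tle3 and Tle4, the beta-catenin cofactor Bcl9 and the Wnt-induced repressor Sp5. They were taken by name, as every probe set whose platform annotation names exactly 1 of these 10 genes. The rule uses no measured value, although the genes were picked with earlier results of these arrays known. This gave 21 probe sets for 9 of the 10 genes, among 18193 genes represented on the array. Tcf7 had no single-gene probe set in the annotation used and was not analysed here.

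The RNA came from epithelium of ICR mouse fetal lung, isolated at embryonic day 11 and held in Matrigel, a basement membrane gel. Both cultures were grown for 4 days with the lung bud growth factor FGF10 and CHIR99021, an inhibitor of the kinase GSK3 that stabilises beta-catenin. The epithelium was then fragmented, embedded anew and grown for 2 further days with FGF10, either still with CHIR99021 (1 array) or without it (1 array). The comparison is therefore continued treatment against withdrawal, with no epithelium that never saw the inhibitor. Each value is a single Affymetrix measurement, so no spread between cultures exists, no test was possible and no p-value is given.

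In the nucleus, TCF/LEF proteins bind DNA through an HMG box. Without beta-catenin they recruit Groucho proteins, which repress transcription, and when beta-catenin accumulates it displaces Groucho and brings in coactivators, with Bcl9 bridging it to the Pygopus proteins. Tcf7l1 acts mainly as a repressor, Lef1 mainly as an activator, and Lef1 and Sp5 are known as Wnt targets in several mouse tissues. Sp5 is a zinc finger factor of the Sp family that dampens Wnt target genes in mouse embryonic stem cells.

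The promoter windows of Sp5 and Lef1 are shown because these were the members at least 2-fold higher with CHIR99021. They come from RefSeq (GRCm38.p6) and run from 250 bases before a transcript start to 50 after it, 5′ to 3′ on the strand of the gene. Capitals mark the letters CTTTG, the core that TCF/LEF factors bind, or its reverse complement CAAAG. Sp5 lies at chr2:70474673-70474972 on the plus strand. Of the 4 starts listed for Lef1, start 1 is at chr3:131110047-131110346 and start 4, inside the gene, at chr3:131156044-131156343, both on the plus strand.
Sp5: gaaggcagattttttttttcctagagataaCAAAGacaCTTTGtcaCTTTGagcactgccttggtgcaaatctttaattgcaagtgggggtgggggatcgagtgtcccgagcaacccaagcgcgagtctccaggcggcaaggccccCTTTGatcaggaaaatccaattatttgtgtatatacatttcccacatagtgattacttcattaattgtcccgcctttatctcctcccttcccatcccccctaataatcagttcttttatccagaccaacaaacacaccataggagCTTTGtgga
Lef1 start 1: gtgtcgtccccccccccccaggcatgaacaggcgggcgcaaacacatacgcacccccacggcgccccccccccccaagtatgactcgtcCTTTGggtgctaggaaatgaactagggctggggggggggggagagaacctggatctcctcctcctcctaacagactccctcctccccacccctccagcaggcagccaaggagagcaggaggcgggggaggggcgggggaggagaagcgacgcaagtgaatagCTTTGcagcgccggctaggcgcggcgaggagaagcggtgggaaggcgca
Lef1 start 4: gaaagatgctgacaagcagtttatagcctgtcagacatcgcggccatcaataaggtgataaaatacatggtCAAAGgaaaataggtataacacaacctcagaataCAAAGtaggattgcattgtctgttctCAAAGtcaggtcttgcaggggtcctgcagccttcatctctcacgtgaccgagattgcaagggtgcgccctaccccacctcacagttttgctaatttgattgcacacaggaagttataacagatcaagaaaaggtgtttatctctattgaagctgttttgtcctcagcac

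The Sp5 window held 5 core matches, a number that 0.286% of all 32851 RefSeq windows reached or exceeded. Both strands were searched. A longer form, CTTTG followed by A or T at each of the next 2 positions, overlaps the core by construction. Sp5 held 2 such matches, CTTTGTT on the opposite strand, centred at -218, and CTTTGAT on the strand of the gene, centred at -102. Single forms were found in 5.85% of all windows for CTTTGTT and in 3.73% for CTTTGAT, any of the 4 forms in 16.9%, and 2 or more in 1.94%. The Lef1 window at start 1 held 2 core matches and no longer form. The window at start 4 held 3, 1 of them the longer CTTTGTA, found in 3.63% of windows. The windows at starts 2 and 3 held 2 and 1 core matches, and no longer form. Start 4 thus held the most core matches of the 4 Lef1 windows, while the shares given here are per single window. The core itself is common, being present in 53.9% of all windows, and 3 or more were present in 5.54%. All 10 genes had windows, 16 in all, of which 8 held the core and 3 a longer form. The windows of Lef1 starts 1 and 2 overlap, so their 2 core matches are the same sites counted in both. Windows of Tcf7, Bcl9 and the 4 Groucho genes held no core match. The window of Axin2, a Wnt target outside the members that was also higher with CHIR99021 (log2 ratio 2.20), held none either. How matches relate to the ratios was not tested. Windows also differ in base composition: the GC content was 45% for Sp5 and 43.7% for Lef1 start 4, but 67.3% for Lef1 start 1 and 80.7% for Bcl9, with a median of 52.7% over all windows. A match is a run of letters and not a measured binding site.

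**Figure D1:**
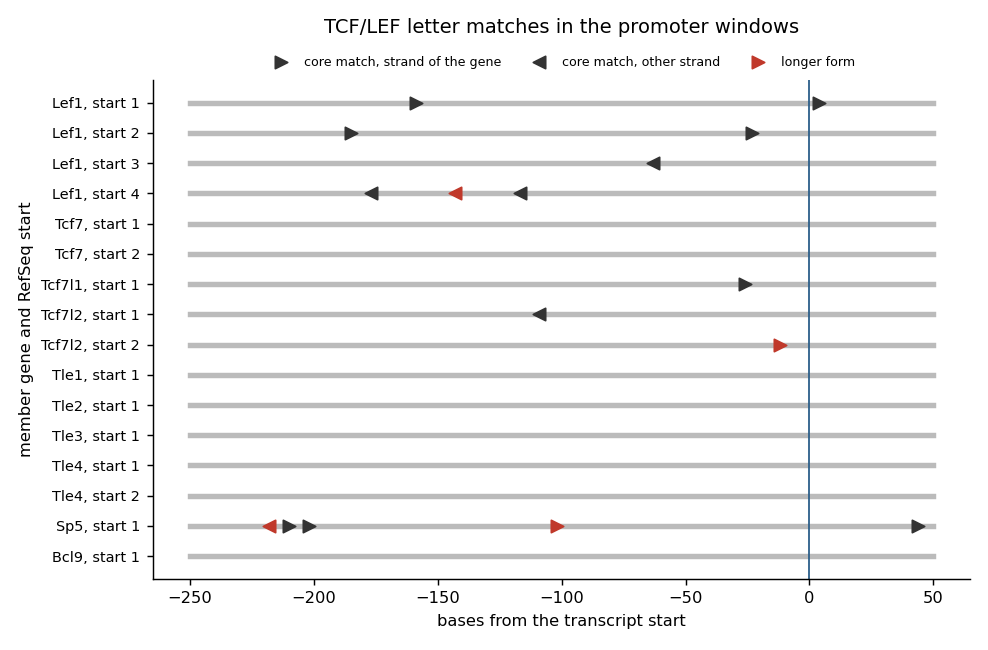
Positions of CTTTG matches in the 16 promoter windows of the 10 member genes. The x axis is the distance in bases from the transcript start, grey bars are the windows, arrowheads give the strand of each match, and red marks longer forms. Sp5 holds 5 matches in 1 window, Lef1 holds matches at all 4 starts, and the Groucho genes hold none. The windows of Lef1 starts 1 and 2 overlap and show the same sites.

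The signals behind all results are MAS5 intensities, the authors' probe set summary on a linear scale. A background floor was set at the 95th percentile of 80 probe sets for olfactory and vomeronasal receptors, at 12.7 with CHIR99021 and 19.2 without. Every log2 ratio divides the signal with CHIR99021 by the signal without it, after raising values below the floor to it. The brightest probe set by mean log2 signal stands for a gene, which is measured when that probe set is above the floor on at least 1 array. Of 12917 measured genes the median log2 ratio was -0.42 and 22.6% had a ratio above 0, so a small negative ratio was common. With genes measured on both arrays divided into 4 equal groups by brightness, the median was -0.53 in the dimmest group and -0.23 in the brightest. The 3′ to 5′ signal ratio of Actb was 3.18 with CHIR99021 and 1.29 without, and that of Gapdh was 1.62 and 0.737. The part of this difference in RNA or labelling in the results below was not tested. Over 5335 genes with several such probe sets, the log2 ratios within a gene had an SD of 0.557, a spread of probes and not of cultures.

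All 10 lung epithelium markers were measured, with summed signals of 25588 with CHIR99021 and 38778 without. By gene, 9 of the 10 had log2 ratios below 0, as had 9995 of the 12917 measured genes. At least 2-fold lower were 4, where 18.4% of all measured genes were. The median was -0.85, below the -0.42 of all measured genes. The 4 past 2-fold were Nkx2-1 (under the floor with CHIR99021, against 52.0 without), Elf3 (79.0 against 209), Krt8 (3151 against 7715) and Krt18 (2834 against 6738). After loess 3 were still at least 2-fold lower, without Elf3, where 7.29% of all measured genes were. Epcam was at 3743 with CHIR99021 and 3846 without, and Sftpc at 8500 and 8808. The part of these lower epithelial signals in the results below was not tested. Of 13 mesenchyme markers 7 were measured, summing to 388 with CHIR99021 and 439 without. They included Acta2 (194 with CHIR99021 and 199 without), Col3a1 (54.6 and 88.7), Col1a2 (49.3 and 63.8) and Col1a1 (35.8 and 24.7). The others measured were Dcn, Tcf21 and Tbx5. Twist1, Tbx4, Fgf10, Lum, Pdgfrb and the brightest probe set of Pdgfra were below the floor on both arrays. A dimmer Pdgfra probe set had 5.25 with CHIR99021, under the floor, and 24.7 without, above it. Of 5 mesothelium markers 3 were measured, summing to 37.2 with CHIR99021 and 503 without. Nearly all of the sum without CHIR99021 was Msln, which lay under the floor with CHIR99021 and at 471 without, while the defining Wt1 and Upk3b were below the floor on both arrays. Of 6 endothelium markers 2 were measured, Kdr (23.5 with CHIR99021 and 32 without) and Cldn5 (20.2 and 39), summing to 43.7 and 71.0. Pecam1, Cdh5, Tek and Tie1 were below the floor on both arrays. Of 6 blood markers 2 were measured, Csf1r (54.4 with CHIR99021 and 48.4 without) and Cd68 (19.4 and 28.1), summing to 73.8 and 76.5. Ptprc was below the floor on both arrays. In bulk RNA, fewer cells of a type and less RNA per cell cannot be told apart.

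Among the 9 measured members, 2 were at least 2-fold higher with CHIR99021, Lef1 and Sp5, and 2 at least 2-fold lower, Tcf7l1 and Tle4. The background shares over all measured genes were 1.90% higher and 18.4% lower by the same threshold. The 2 lower members of 9 are therefore close to the background share, and Tle4 passed the threshold narrowly. The median log2 ratio of the members was -0.31, against -0.42 over all measured genes. By probe set, 19 of the 21 were measured, all 19 above the floor on both arrays, and 2 were at least 2-fold higher and 4 lower. Of all measured single-gene probe sets 1.51% were higher and 24.2% lower by the same rule. Ratios were above 0 for 5 of the 19 (26.3%), against 19.4% of all measured single-gene probe sets. The plot of probe set signals shows the 5 above 0: 1 probe set each of Lef1, Sp5 and Tcf7l1, and both of Bcl9.

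**Figure D2:**
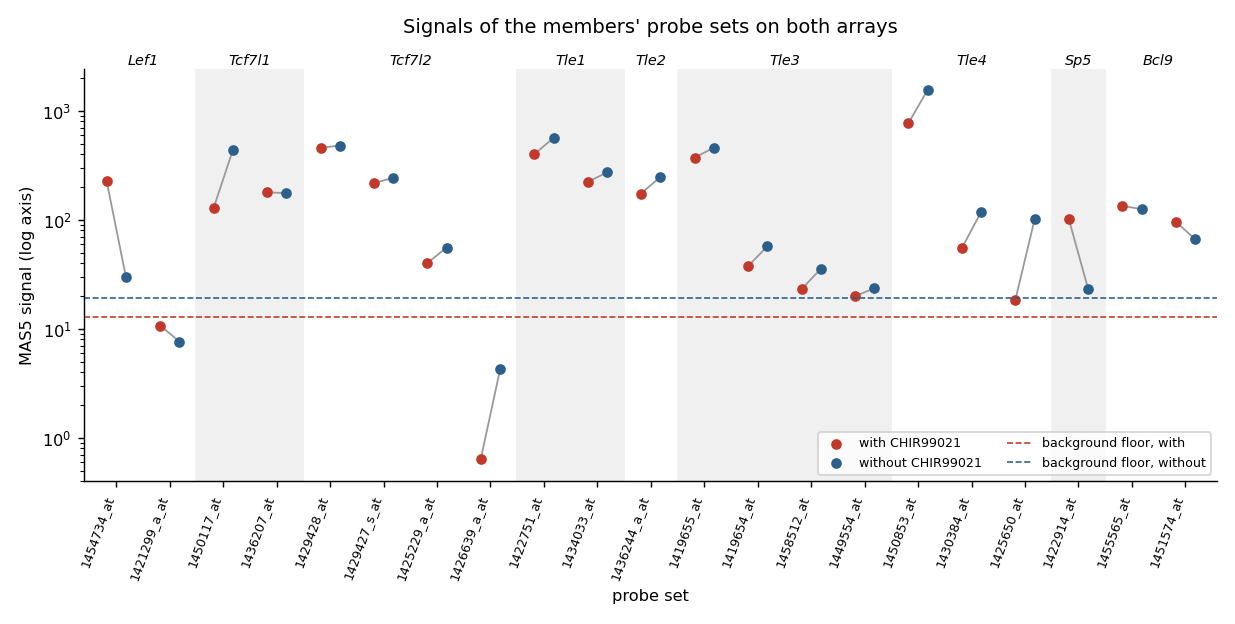
MAS5 signal (log axis) of each of the 21 probe sets, grouped by gene, with CHIR99021 in red at the left of each pair and without it in blue at the right. Each point is 1 array, and dashed lines are the background floors of 12.7 (with) and 19.2 (without). The steepest differences upward with CHIR99021 are Lef1 (225 against 29.8) and Sp5 (101 against 23.3).

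Lef1, the activating TCF/LEF factor, had a signal of 225 with CHIR99021 and 29.8 without, on probe set 1454734_at. This is 7.57-fold higher, a log2 ratio of 2.92, and places Lef1 at rank 18 of 12917 measured genes from the highest ratio. The signal was 17.7 times the floor with CHIR99021 but only 1.55 times the floor without, so the size of the ratio depends on a value near background. The second probe set, 1421299_a_at, read 10.7 with CHIR99021 and 7.63 without, below the floor on both arrays, and gives no ratio. The higher signal of Lef1 thus rests on 1 probe set.

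Tcf7l1, the family's main repressor, was read by a pair of probe sets that gave different answers. Probe set 1450117_at had 128 with CHIR99021 and 435 without, a 3.39-fold lower signal, a log2 ratio of -1.76 and rank 12322 of 12917 from the highest. Probe set 1436207_at had 179 with CHIR99021 and 175 without, a log2 ratio of 0.03. Both lay well above the floor, and their gap of 1.79 on the log2 scale was reached or exceeded by 6.77% of the 5335 genes with several probe sets. The first stands for the gene by the brightness rule; by the median of both the log2 ratio was -0.87, short of 2-fold. The part of a transcript that each probe set reads is not given in the sources used here, so how the difference in 3′ to 5′ ratios bears on this gap was not tested.

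Tcf7l2, a TCF factor of the gut and many other epithelia, was nearly equal on both arrays. Its brightest probe set, 1429428_at, had 457 with CHIR99021 and 479 without (log2 ratio -0.07). Probe set 1429427_s_at had 217 with CHIR99021 and 242 without (log2 ratio -0.15), and 1425229_a_at had 40.1 and 55.6 (log2 ratio -0.47). The last, 1426639_a_at, was under the floor with and without CHIR99021. Lef1 and Tcf7l2 differed in log2 ratio by 2.99, and Lef1 and Tcf7l1 by 4.68, differences that no single scaling factor between the arrays can change. The TCF/LEF genes thus moved unequally: Lef1 was higher, Tcf7l2 within 2-fold, and Tcf7l1 lower by 1 of its 2 probe sets.

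The Groucho genes were all below 0 on the authors' scale, as were most genes, and under other scalings Tle2 and Tle3 also took values above 0. Tle1 had 399 with CHIR99021 and 564 without on probe set 1422751_at (log2 ratio -0.50), and 222 and 272 on 1434033_at (log2 ratio -0.29). Tle2, with 1 probe set, had 174 with CHIR99021 and 248 without (log2 ratio -0.51). Tle3 had 371 with CHIR99021 and 459 without on 1419655_at (log2 ratio -0.31), and its 3 dimmer probe sets had log2 ratios of -0.24, -0.61 and -0.62. These 3 genes lay near the median gene. Where several probe sets were measured they differed little, with gaps of 0.21 for Tle1 and 0.38 for Tle3.

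Tle4 had the lowest ratio of the Groucho genes. All 3 of its probe sets were at least 2-fold lower with CHIR99021, where 24.2% of all measured single-gene probe sets were. The brightest, 1450853_at, had 769 with CHIR99021 and 1559 without, 2.03-fold lower (log2 ratio -1.02). Probe set 1430384_at had 55.2 with CHIR99021 and 118 without (log2 ratio -1.09). The third, 1425650_at, had 18.5 with CHIR99021, near the floor, and 101 without (log2 ratio -2.45). The gap of 1.43 between its probe sets was reached or exceeded by 13.1% of the 5335 genes with several. Under the 4 other scalings given below, the brightest probe set was short of 2-fold. Tle4 stood at rank 10604 of 12917 from the highest ratio, that is, 82.1% of the way down the genes. The log2 ratio of Tle4 minus that of Tle3 was -0.71. The SD of 0.557 between probe sets describes single ratios and not a difference of ratios, so it gives no scale for this value.

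Sp5 had 101 with CHIR99021 and 23.3 without on its only probe set, 1422914_at. This was 4.34-fold higher, a log2 ratio of 2.12, at rank 42 of 12917. Its signal without CHIR99021 was 1.21 times the floor, and with the floor moved to the 99th percentile of the receptor probe sets the ratio became a bound, with a log2 value of at least 1.86. Axin2, the feedback inhibitor widely used as a readout of the pathway, had 267 with CHIR99021 and 58.2 without, a log2 ratio of 2.20 that lay 0.08 from that of Sp5. Other Sp family factors, which share the zinc finger domain, did not reach 2-fold on the authors' scale. Of 5 measured, 0 were higher and 0 lower, against 1.90% and 18.4% of all measured genes, with a median log2 ratio of -0.02. After loess Sp7 reached a log2 ratio of 1.12, from dim signals of 32.5 with CHIR99021 and 22.6 without.

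Bcl9 was within 2-fold on both of its probe sets. Probe set 1455565_at had 134 with CHIR99021 and 125 without (log2 ratio 0.10), and 1451574_at had 96.2 and 66.4 (log2 ratio 0.53). The gene stood at rank 2278 of 12917, above the median gene.

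**Figure D3:**
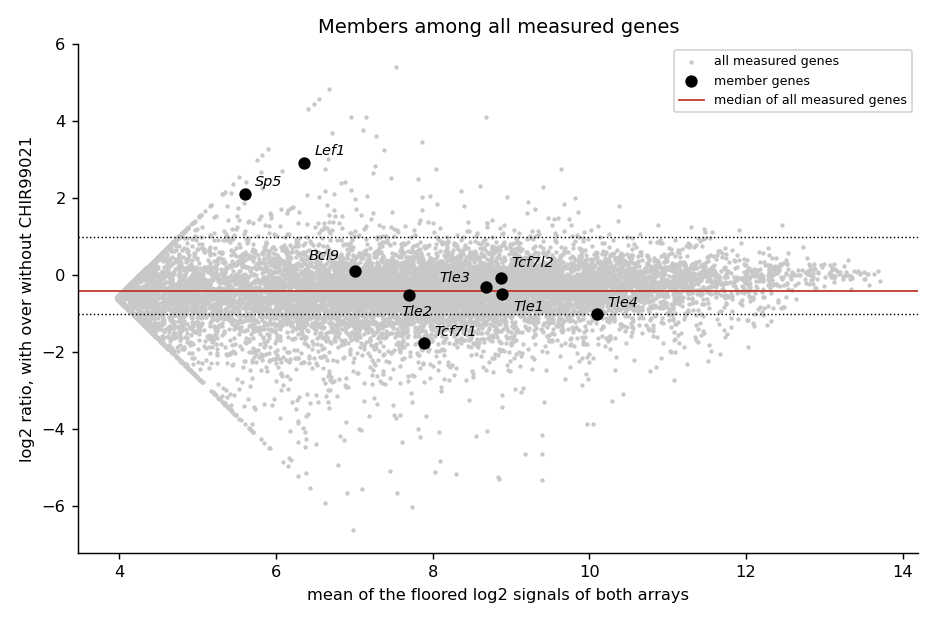
Log2 ratio of each measured gene, with over without CHIR99021, against the mean of its floored log2 signals. Grey points are the 12917 measured genes, black points the 9 members, the red line the median gene (-0.42) and dotted lines the 2-fold thresholds. Lef1 (2.92) and Sp5 (2.12) lie at the upper edge of the cloud, Tcf7l1 (-1.76) lies below the lower threshold, Tle4 (-1.02) on it, and the other members between the thresholds; the sloping edges at low signal are set by the floors.

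Under the 4 other scalings Tcf7l2, Tle2 and Tle3 changed sign in at least 1, while Lef1, Sp5, Bcl9, Tle1, Tle4 and the brightest probe set of Tcf7l1 kept theirs. The median gene moved to log2 ratios of 0.05 after median centring, 0.12 after quantile normalization, 0.04 after loess and -0.26 after scaling on bacterial hybridization controls. Under these 4 scalings Lef1 stayed between 3.09 and 3.54 and Sp5 between 2.28 and 2.78. Tcf7l1 lay between -1.60 and -1.20, and Tle4 between -0.85 and -0.54, short of 2-fold under each. Tcf7l2 was above 0 under all 4 (0.10 to 0.41), Bcl9 was between 0.27 and 0.74, and Tle1 between -0.33 and -0.02. After median centring 2 members were at least 2-fold higher and 1 lower, where 5.91% of all measured genes were higher and 7.44% lower. After loess the members' counts were also 2 and 1, where 6.03% of genes were higher and 7.29% lower. The members' median log2 ratio was 0.17 after median centring and 0.12 after loess.

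**Figure D4:**
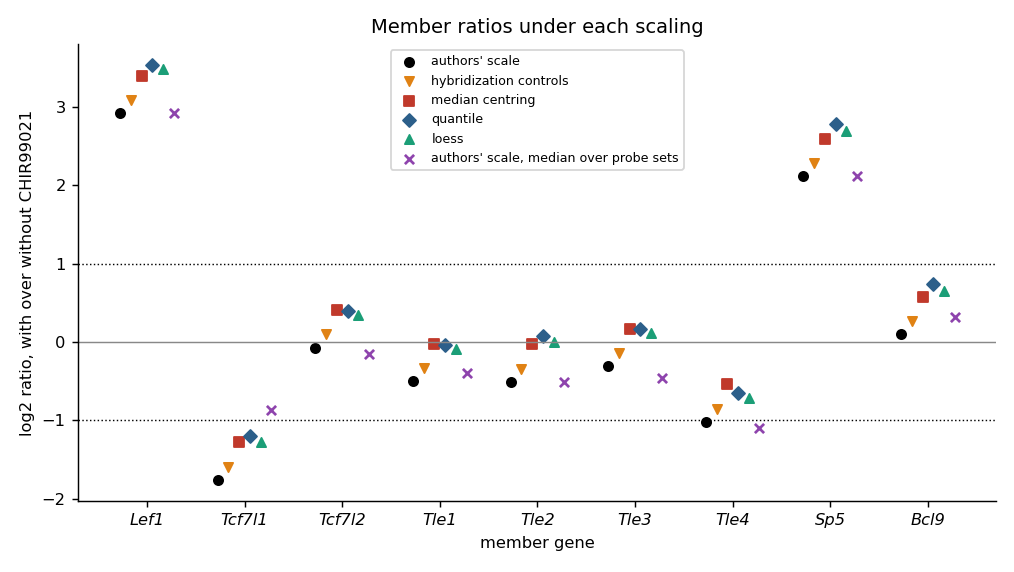
Log2 ratio of each measured member, with over without CHIR99021, on the authors' scale, under 4 other scalings, and as the median of its measured probe sets. Each symbol is 1 setting and dotted lines are the 2-fold thresholds. Lef1 and Sp5 are above 2-fold at every symbol, Tcf7l1 is below -1 except as the median of its probe sets (-0.87), and Tle4 is at or beyond -1 only on the authors' scale, as its brightest probe set (-1.02) and as the median (-1.09).

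By the brightest probe set of each gene, the partners through which these factors act had ratios smaller in size than those of Lef1 and Sp5. Of 19 measured coactivators of beta-catenin, 0 were at least 2-fold higher and 1 lower, against 1.90% and 18.4% of all measured genes. Their median log2 ratio was -0.31. Ctnnb1, which encodes beta-catenin itself, had 6810 with CHIR99021 and 8552 without on its brightest probe set (log2 ratio -0.33). Its other 2 probe sets had 996 with CHIR99021 and 3776 without (log2 ratio -1.92), and 63.1 and 883 (log2 ratio -3.81). That gap of 3.48 was matched by 0.206% of genes with several probe sets. Pygo2, the partner of Bcl9, had 655 with CHIR99021 and 395 without, a log2 ratio of 0.73 that was 1.14 after loess, and was named after its value was seen. The lower coactivator was Kmt2a, a histone methyltransferase, at 86.9 with CHIR99021 and 241 without, while the log2 ratio of a further Kmt2a probe set was 0.27. After loess Kmt2a was short of 2-fold (log2 ratio -0.93). Of the 19 coactivators 1 was then higher, Pygo2, and 0 were lower, against 6.03% and 7.29% of all measured genes.

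Of 19 measured corepressors and antagonists, 0 were higher and 3 lower, where 18.4% of all measured genes were lower, with a median log2 ratio of -0.19. Tle6, a divergent Groucho relative, had 68.2 with CHIR99021 and 171 without (2.50-fold lower). Sin3a, a scaffold of histone deacetylase complexes, had 142 with CHIR99021 and 329 without (2.31-fold lower). Hic1, a transcriptional repressor, was dim, at 16.1 with CHIR99021 and 34.2 without (2.12-fold lower). Tle5, a short Groucho protein that lacks the repeats binding other factors, had 168 with CHIR99021 and 265 without (log2 ratio -0.66). After loess 0 of the 19 were past 2-fold in either direction, where 6.03% of all measured genes were higher and 7.29% lower.

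Of 11 measured kinases and regulators acting on TCF factors or beta-catenin, 0 were higher and 1 lower, against 1.90% and 18.4% of all measured genes. Their median log2 ratio was -0.59. The lower one was Tnik, a kinase that phosphorylates TCF factors: with CHIR99021 it lay under the floor, against 27.6 without, at least 2.17-fold lower. After loess its log2 ratio was -0.53, and 0 of the 11 were past 2-fold, where 6.03% of all measured genes were higher and 7.29% lower. Nlk, another TCF kinase, was not past 2-fold on its brightest probe set, with 450 with CHIR99021 and 798 without, and was named after its value was seen. Its other 2 probe sets had 74.5 with CHIR99021 and 395 without (log2 ratio -2.41), and 173 and 304 (log2 ratio -0.82). Of 11 measured transcription factors known to recruit Groucho, 0 were higher and 4 lower, against the 18.4% of all measured genes that were lower, and their median of -0.50 was close to the -0.42 of all genes. Hes1, a Notch target, had 183 with CHIR99021 and 575 without (3.14-fold lower). Runx1, a Runt factor, had 245 with CHIR99021 and 566 without (2.31-fold lower). Nkx2-1, the lung identity factor, lay under the floor with CHIR99021, against 52.0 without, at least 4.09-fold lower, and Heyl, a Notch target, was at least 2.99-fold lower (38.0 without CHIR99021). After loess 2 of these 11 were at least 2-fold lower and 0 higher, where 7.29% and 6.03% of all measured genes were. The 2 were Hes1 (log2 ratio -1.20) and Nkx2-1 (-1.44, again with its signal with CHIR99021 under the floor).

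Of 8 measured Sox factors, HMG box relatives of the TCF/LEF family, 2 were higher and 3 lower, against 1.90% and 18.4% of all measured genes. Their median log2 ratio was -0.03. Sox9, a marker of the lung bud tip, had 771 with CHIR99021 and 70.1 without, and Sox2, a marker of the airway, lay under the floor with CHIR99021, against 285 without, at least 22.4-fold lower. Sox11, a neural progenitor factor, had 1039 with CHIR99021 and 338 without (3.08-fold higher), and was named after its value was seen. Sox6 had 40.9 with CHIR99021 and 181 without (4.43-fold lower), and Sox21 had 62.5 and 218 (3.48-fold lower). Of 21 measured Wnt target genes, 9 were higher and 3 lower, where 1.90% and 18.4% of all measured genes were, with a median log2 ratio of 0.52. After loess 12 were higher and 3 lower, where 6.03% and 7.29% of all genes were. Besides Sox9, the list's largest ratios were those of Lgr5, a Wnt-amplifying receptor, at least 21.7-fold higher (416 with CHIR99021), Dkk1, a secreted Wnt antagonist, 12.2-fold higher (541 against 44.3), and Ndrg1, a stress-responsive protein, 6.71-fold lower (41.3 against 277). The other lower targets were Myc (41.5 with CHIR99021 and 263 without, 6.32-fold lower) and Ephb3 (142 and 409, 2.87-fold lower), named after their values were seen. The lists share Sox9, and the target genes were listed with earlier results of these arrays known, so their count is no independent evidence of a direction.

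**Figure D5:**
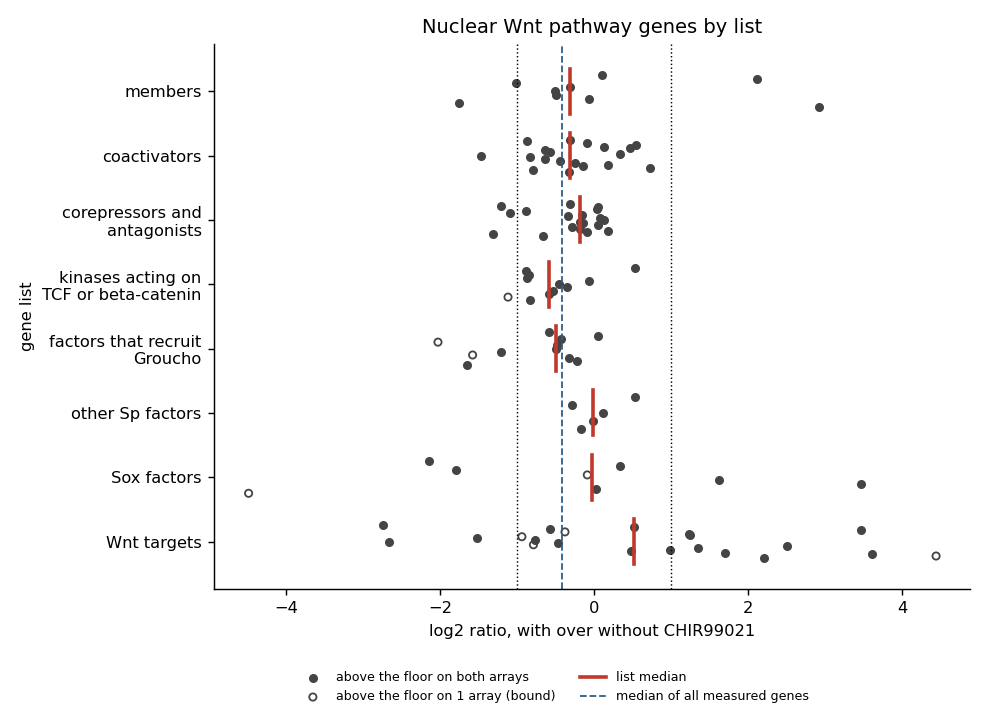
Log2 ratio, with over without CHIR99021, of each measured gene by list; filled points were above the floor on both arrays and open points on 1. Red bars are list medians, the dashed line is the median of all measured genes (-0.42) and dotted lines are the 2-fold thresholds. Coactivators, corepressors and kinases lie between -1.47 and 0.73 while Lef1, Sp5 and the Wnt targets extend to higher ratios. The Wnt targets also extend lower, to -2.75.

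The 3 genes closest to Lef1 by their pair of floored log2 signals over the 2 arrays were Elovl2 (distance 0.40, log2 ratio 2.75), Ppargc1a (0.43, 3.01) and Tmem132c (0.43, 2.70). Those closest to Sp5 were Pdzrn3 (distance 0.08, log2 ratio 2.22), Kbtbd6 (0.17, 1.88) and Mfsd2a (0.22, 2.43). With 2 arrays this likeness combines brightness, which also depends on the probes, with the ratio.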

How the data were processed

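Labelled RNA (100 ng of total RNA, 3′ in vitro transcription, per the labels' protocols) from 2 cultures was read on Affymetrix arrays. The authors deposited a linear intensity for each probe set, computed with MAS5 per the submitters' processing notes; no version or scaling target is stated. MAS5 subtracts mismatch signal, so dim values scatter, and no detection call was used. The intensities ran from 0.0232 to 13693 with CHIR99021 and from 0.0201 to 14129 without, with medians of 20.3 and 32.9 over probe sets other than controls.

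Of 45101 probe sets, 34958 name 1 gene, 932 several and 9211 none in the platform annotation. All 21 member probe sets had Entrez identifiers in RefSeq (GRCm38.p6), and 0 symbols needed a change. Floor, ratio and gene rules stand with the results. With 1 array per condition, precision is limited by their number and nothing was tested.

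Named are all members, up to 4 genes per list past 2-fold with the largest change, Axin2, Ctnnb1 and Tle5, and the nearest 3 genes to Lef1 and Sp5. The cell type markers and Sp7 were named outside this rule after their values were seen; other exceptions are marked. The members and lists were chosen with earlier results of these data known. Alternatives were 4 scalings (loess span 0.4), floors at the 90th and 99th percentile or none, an offset of 16, the median over probe sets, leaving out _x_at and _s_at probe sets, and thresholds of 1.5-fold and 3-fold. Functions were tested on simulated data with changes put only into probe sets well above the floor. That test does not cover signals near the floor, such as those of Lef1 and Sp5 without CHIR99021. The simulation also had no trend with brightness and left out scaling on hybridization controls. Python 3.11.15, numpy 2.4.6, pandas 2.3.3, statsmodels 0.14.6 and matplotlib 3.10.9 were used.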

Additional observations from a re-analysis of the deposited data

How the results depend on the processing

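With 1 array per condition no error between cultures exists, so a member's ratio is said to have moved when it shifted by more than the SD of 0.557 between probe sets of a gene. Of 90 ratios of members under 10 alternatives, 82 moved by less, 8 by more, and 0 past 2-fold changed sign. These counts were partly fixed in advance. The 90th percentile floor, no floor and leaving out _x_at and _s_at probe sets left every member ratio unchanged. The probe sets standing for the members lay above both floors and were of neither type. The 99th percentile floor changed only Sp5. Median centring and scaling on hybridization controls each shifted all members equally, by less than the SD of 0.557. Lef1 ranged from 2.40 to 3.54 and Sp5 from 1.57 to 2.78, both at least 2-fold higher under all 10, with the lowest values under the offset of 16. Tcf7l1 ranged from -1.76 to -0.87 and was past 2-fold under 9 of 10, the exception being the median over its probe sets. Those 9 all used its brightest probe set. Tle4 ranged from -1.09 to -0.54 and was past 2-fold under 6 of 10. The count of members at least 2-fold lower was 2 on the authors' scale. It was 1 after median centring, quantile normalization, loess and scaling on hybridization controls, and with the median over probe sets. By a 3-fold threshold the count of lower members was also 1. That 1 member was Tcf7l1, except with the median over probe sets, where it was Tle4 (log2 ratio -1.09). The count of higher members was 2 under every alternative run, by 2-fold or by the thresholds of 1.5-fold and 3-fold. Past 2-fold on the authors' scale were 1.90% of all measured genes upward and 18.4% downward. These shares were 5.91% and 7.44% after median centring, and 6.03% and 7.29% after loess. For the other alternatives no such share was computed, so their counts have no background to be set against. The causes of the shifts between settings were not tested.

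Signals near the floor limit the sizes for Lef1 and Sp5 without CHIR99021, and Sp5, Tle2 and the measured ratio of Lef1 rest on 1 probe set each. No paired analysis was possible because each condition has 1 array.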
